A study of Homo sapiens and Mus musculus with 15 samples.

Results

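ARPE-19 cells, an established human line from the retinal pigment epithelium (RPE), were compared between a soft substrate of 1.5 kPa and plastic. All cells of this comparison expressed a control vector, which the labels do not name. Poly-A RNA was sequenced from 3 libraries of cells on plastic and 3 libraries of cells on 1.5 kPa, harvested after 5 days. The material of the soft substrate, called the gel here, its coating and the stiffness of the plastic are not given in the labels. The genes described are the 14253 of 61071 in the deposited table with at least 1 TPM (a level corrected for transcript length and scaled to the library total) in at least 3 of the 6 libraries. The choice used the level of a gene and not its difference between substrates, although 198 genes passed with no gel library at 1 TPM and 115 with no plastic library at 1 TPM. Another 3 libraries, of cells overexpressing HA-tagged YAP on 1.5 kPa, entered the main comparison only through the estimate of the spread. They also entered the reference values of 3 alternatives given below, namely quantile normalization, median-ratio scaling and removal of the length trend. The other samples among the 15 of the series are mouse. The labels do not say whether the libraries came from separate cultures, so the P values measure only the spread between these libraries, which may be technical.

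Cells sense the stiffness of what they adhere to through integrins, which connect the extracellular matrix to the actin cytoskeleton at focal adhesions. On stiff substrates tension in actin fibres favours the nuclear entry of YAP and TAZ, co-activators of the TEAD transcription factors, and of the co-activators of serum response factor (SRF), which acts on genes of the contractile apparatus. The kinases LATS1 and LATS2 of the Hippo pathway hold YAP and TAZ in the cytoplasm. In the eye the RPE rests on Bruch's membrane, a layered matrix that the RPE helps to build, and RPE cells that leave their epithelial state make contractile fibres and fibrotic matrix.

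The labelled cell type was checked against its markers. RPE65, the isomerase of the visual cycle, was listed at 0 TPM in all 6 libraries, as were TTR and RGR. LRAT lay between 0.55 and 1.22 TPM, and TYR was listed at 0 in 5 of the 6 libraries. Other RPE genes were measured, among them OTX2, a transcription factor of RPE fate, at 35.6, 38.5 and 35.4 TPM on plastic and 26.5, 24.4 and 26.1 TPM on gel. The keratin KRT8 lay between 672 and 715 TPM and the mesenchymal filament VIM between 6772 and 7869 TPM in the 6 libraries. The line thus carried epithelial and mesenchymal filament genes together, while of its visual cycle genes several were listed at or near 0 and others were measured, RDH5 at 21.6 to 24.0 TPM on plastic and 14.6 to 17.0 TPM on gel and RLBP1 at 3.81 to 4.56 and 2.19 to 3.68 TPM. Of 9 endothelial markers none reached 1 TPM in any library, and their summed level was 0.5 to 0.7 TPM on plastic and 0.4 to 0.8 TPM on gel. Among 12 macrophage and leukocyte markers only the lysosomal protein CD68 passed the level filter, and 7 were listed at 0 in all 6 libraries. Of 10 neural retina markers only GLUL and RLBP1, neither of them particular to photoreceptors, passed the filter.

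The libraries differed in ways that bear on every result. TPM values summed to 965460 to 970087 per library. The table holds no read counts and TPM keeps no depth, so the depth is unknown. Mitochondrially encoded genes held 18.2 to 20.3% of the summed TPM on plastic and 12.7 to 15.1% on gel. Along the first principal component, with 72.9% of the variance, the plastic libraries lay at -35.2 to -26.7 and gel replicates 2 and 3 at 41.0 and 36.1, whereas gel replicate 1 lay at 17.7. Gel replicate 1 was the highest of the 3 gel libraries in 80.0% of the genes called lower and the lowest of the 3 in 58.2% of those called higher. It therefore stood nearer to plastic than the other gel libraries, and results that rest on it are given with and without it. The median absolute difference between libraries of the same group was 0.106 to 0.194 on the log2(TPM + 1) scale.

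Long transcripts were lower on gel and short ones higher. Over 14077 genes with an annotated transcript, the Spearman correlation across genes between the length of the longest transcript and log2FC was -0.42, which describes genes that share the same 6 libraries and are not independent. In the decile with the longest transcripts (7351 bases and more) the median log2FC was -0.45, and 62.6% of genes were called lower against 5.33% called higher. In decile 2 from the short end (1070 to 1780 bases) the median was 0.26, and 50.9% were called higher. The deviation from the mean of all 6 libraries in the longest decile was -0.37 in gel replicate 2, -0.27 in replicate 3 and -0.06 in replicate 1, against 0.13 to 0.29 on plastic. The gradient thus followed the order of the libraries on the first component. Its part in the results was not tested, and the counts of gene groups after each library's trend with transcript length was removed are given in the text where they differed by over 1.5 times, and as shares in the plot of gene groups.

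On the deposited TPM scale more genes were lower on gel than higher, a balance that turned under other scalings. By limma on log2(TPM + 1), 7393 of the 14253 genes (51.9%) passed an adjusted P of 0.05, called hereafter. Of these 3333 (23.4% of genes tested) were higher on gel and 4060 (28.5%) were lower. A log2FC of 1 or more was reached by 233 genes called higher (1.63%) and 525 called lower (3.68%). The 3 gel libraries did not overlap the 3 plastic libraries in 8375 genes (58.8%). Of the called genes 60.3% of those higher and 41.7% of those lower differed by less than 0.5 on the log2 scale, at a median standard error of 0.11 over all genes. In bulk RNA, fewer cells of a kind and less RNA per cell cannot be told apart.

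Without gel replicate 1, 3304 genes were higher and 4604 lower; 3069 and 3925 of the original calls were kept and none turned sign. With the length trend removed the split turned to 3549 higher and 3243 lower, and 290 genes rather than 525 were lower by 1 or more. The split also turned under quantile normalization, to 3897 higher and 3680 lower, and under median-ratio scaling, to 3882 and 3700. When mitochondrially encoded genes were left out and TPM rescaled, the higher share of called genes was 33.4% against 45.1% with them. The balance of directions thus depended on the scaling, while 2537 of the higher and 2790 of the lower calls were kept after removal of the length trend and 26 turned sign. The median log2FC of all genes was -0.04.

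Called genes were more frequent at high levels. In the lowest quintile by mean TPM 33.0% of genes were called and in the highest quintile 67.2%, while the median standard error fell from 0.16 to 0.07. The highest quintile held 1164 higher and 751 lower genes and the other quintiles each more lower than higher. Of 12004 protein-coding genes 24.9% were higher and 29.7% lower, and of 671 antisense genes 13.1% were higher and 19.8% lower.

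**Figure D1:**
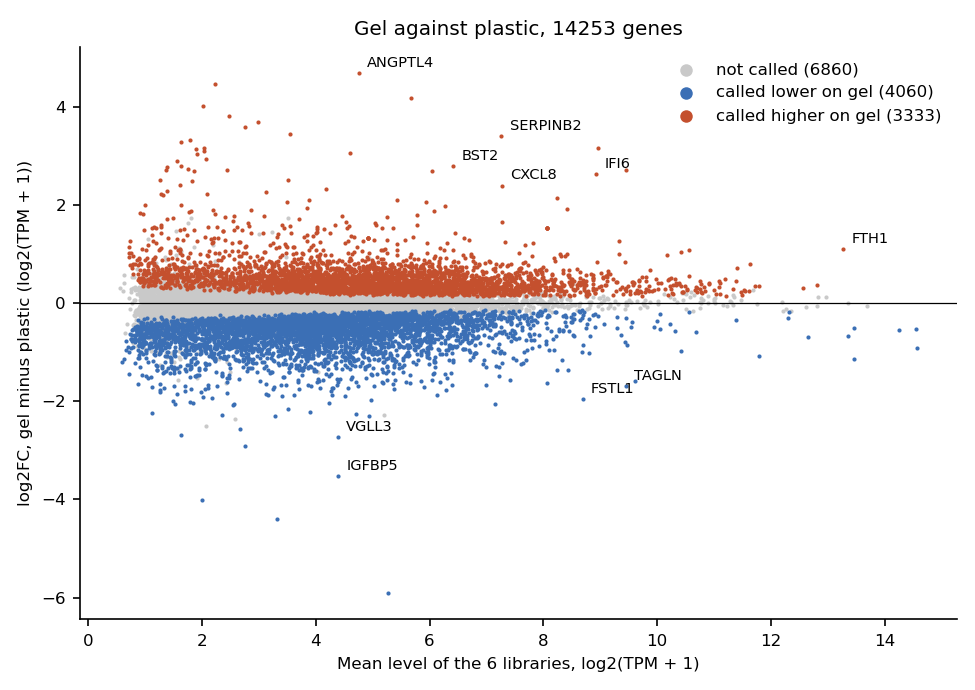
Log2FC of gel against plastic (vertical axis, log2(TPM + 1) scale) against the mean level of the 6 libraries (horizontal axis, log2(TPM + 1)) for 14253 genes. Coloured points are the 3333 genes called higher and 4060 called lower; ANGPTL4, SERPINB2, IGFBP5 and VGLL3 are among the labelled points, and genes beyond IGFBP5 at the lower edge have clone names.

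ANGPTL4, a secreted inhibitor of lipoprotein lipase, showed the largest increase of the called genes. It measured 4.13, 4.12 and 4.74 TPM on plastic and 129.8, 141 and 139 TPM on gel. The lowest gel library was thus 27.4-fold the highest plastic library (log2FC = 4.69 ± 0.10 SE, adjusted P = 1.91e-09). The gene lies at chr19:8363289-8374373 (GRCh38). SERPINB2, an intracellular inhibitor of plasminogen activators, measured 41.7, 49.1 and 48.4 TPM on plastic and 512, 454 and 532 TPM on gel, with no overlap (log2FC = 3.40 ± 0.08 SE, adjusted P = 3.45e-09). CD74, the invariant chain of MHC class II, rose from 7.71, 8.07 and 6.54 TPM to 68.7, 68.9 and 69.8 TPM (log2FC = 3.06 ± 0.12 SE, adjusted P = 1.40e-07). MMP1, the interstitial collagenase, was at or under 0.46 TPM in every plastic library and between 9.08 and 10.5 TPM on gel. BST2, or tetherin, a membrane protein that retains budding virus, measured 29.6, 32.5 and 32.4 TPM on plastic and 208, 232 and 235 TPM on gel (log2FC = 2.80 ± 0.09 SE, adjusted P = 3.09e-08). G0S2, an inhibitor of the triglyceride lipase ATGL, stayed at or under 0.26 TPM on plastic and reached 6.18, 7.77 and 7.76 TPM on gel. The rule that picked ANGPTL4, SERPINB2, CD74, MMP1, BST2 and G0S2 required no overlap between the groups, so their lack of overlap is not a result. MMP1 and G0S2 passed the level filter through the gel libraries alone, which partly fixed their direction.

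The other leading increases were noncoding RNAs. RN7SL1, RNA of the signal recognition particle, measured 70.9, 365 and 173 TPM on plastic and 1553, 1199.7 and 1740.3 TPM on gel, and RN7SL3 2.21, 5.42 and 1.13 TPM and 37.5, 27.8 and 50.6 TPM. These near-identical genes share reads and lack a poly-A tail, and the plastic libraries differed among themselves by several fold. TGFB2-OT1 was listed at 0 in all 3 plastic libraries and measured 5.49, 39.8 and 39.6 TPM on gel. It lies within the 3' end of TGFB2, a gene called lower, on the same strand. CHMP1B-AS1 was also listed at 0 on plastic and measured 4.90, 11.8 and 11.1 TPM on gel. TGFB2-OT1 and CHMP1B-AS1, like CERS6-AS1, passed the level filter through gel alone. CERS6-AS1 and NAV2-AS1 rose by 3.33 and 2.74, against -0.75 for CERS6 and -1.43 for NAV2 on the opposite strands. Whether the counting used strand is not given in the sources used here, so reads of these genes and of their partners cannot be told apart.

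IGFBP5, a secreted binder of insulin-like growth factors that is retained in matrix, showed the largest decrease among called genes with an official symbol. It measured 64.1, 77.4 and 69.9 TPM on plastic and 6.56, 4.33 and 4.87 TPM on gel (log2FC = -3.53 ± 0.13 SE, adjusted P = 1.25e-07). The lowest plastic library was thus 9.77-fold the highest gel library. The gene lies at chr2:216672105-216695525. VGLL3, a TEAD cofactor, measured 43.9, 52.1 and 64.2 TPM on plastic and 9.63, 5.48 and 6.71 TPM on gel (log2FC = -2.73 ± 0.19 SE, adjusted P = 5.44e-06), and lies at chr3:86876388-86991119. ACKR3, a scavenging chemokine receptor, fell from 51.43, 53.03 and 65.93 TPM to 12.9, 10.4 and 9.96 TPM (log2FC = -2.26 ± 0.12 SE, adjusted P = 9.21e-07). The synaptic adhesion gene NRXN3 fell by 2.22 and LBH, a transcriptional cofactor, by 2.06 on the log2 scale. FSTL1, a secreted glycoprotein of mesenchymal cells, measured 728, 868 and 847 TPM on plastic and 265, 185 and 187 TPM on gel (log2FC = -1.95 ± 0.13 SE, adjusted P = 3.24e-06). The zinc finger gene ZNF106 fell by 1.98 and PPP1R12B, a myosin phosphatase subunit, by 1.94. With the length trend removed the log2FC was -1.47 for ZNF106, -1.36 for PPP1R12B, -1.78 for NRXN3 and -2.23 for VGLL3. It was -3.23 for IGFBP5, -1.68 for FSTL1, -2.38 for ACKR3 and -2.06 for LBH. ZBED6 fell by 2.91 and lies inside ZC3H11A on the same strand, which was not called (66.0 to 69.6 TPM on plastic and 65.7 to 71.5 TPM on gel). STARD4-AS1, WFDC21P and CCDC144B, an antisense gene and 2 pseudogenes, were also lower, with a log2FC of -2.29, -2.05 and -2.01. STARD4-AS1 overlaps genes on the opposite strand that were called lower, and CCDC144B overlaps such a gene on the same strand. Reads of STARD4-AS1 and CCDC144B and of their partners cannot be told apart here.

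**Figure D2:**
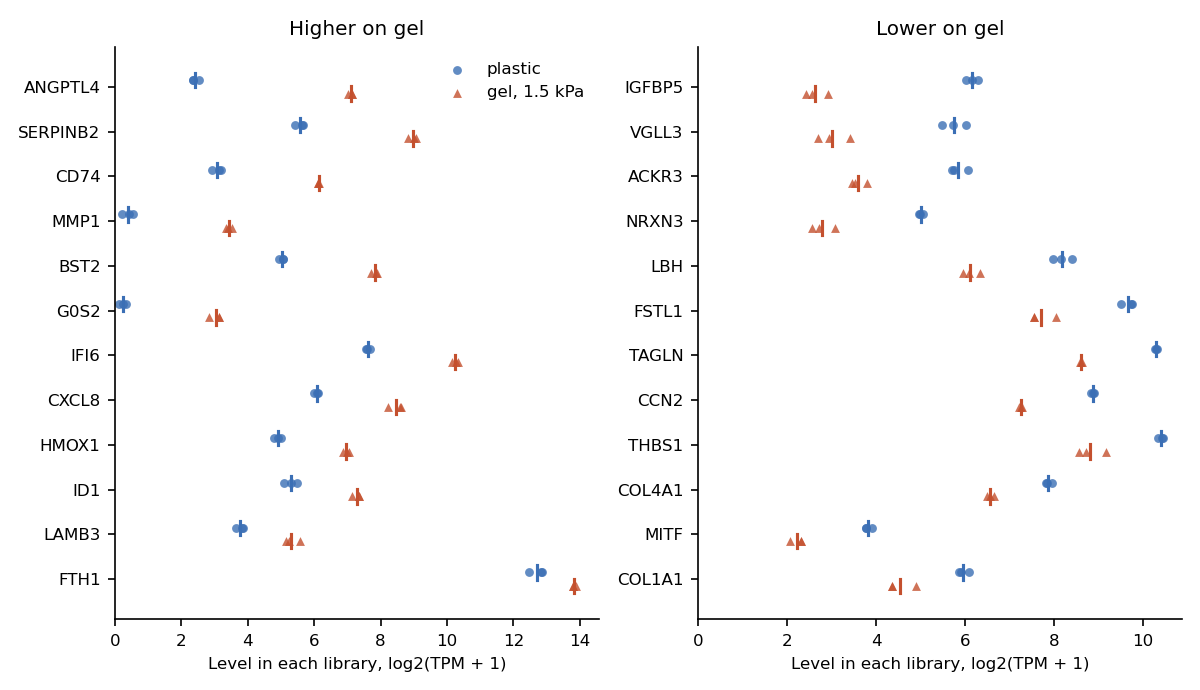
Levels of leading genes (horizontal axis, log2(TPM + 1)) in each plastic library (circles) and gel library (triangles), with a bar at the group mean. In each of the genes shown the 3 gel libraries lie on 1 side of the 3 plastic libraries. The rule for the largest increases and decreases required this of the genes it picked, among them ANGPTL4 and IGFBP5, and not of others shown, such as TAGLN and CCN2. ANGPTL4 spans 4.12 to 4.74 TPM on plastic and 130 to 141 TPM on gel.

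By the difference in mean TPM, a relative measure, the largest losses were mostly of mitochondrial messengers, with actin and SPARC among them. MT-ATP8 averaged 33521 ± 3233 TPM on plastic and 17886 ± 2832 TPM on gel (SD, n = 3), and MT-CO2 28964 ± 2224 TPM and 20199.8 ± 1447 TPM. MT-ATP8 overlaps MT-ATP6 on the same strand (log2FC -0.91 and -0.51), so its level depends on how shared reads were split. ACTB, cytoplasmic beta-actin, measured 6035, 5129 and 5681 TPM on plastic and 4599.9, 4601 and 4489 TPM on gel (log2FC = -0.30 ± 0.07 SE, adjusted P = 0.00393). SPARC, a matrix glycoprotein that binds collagen, fell from 2111, 1755 and 1932 TPM to 1111, 931 and 923 TPM. The largest gain was of FTH1, the heavy chain of ferritin, which averaged 6806 ± 983 TPM on plastic and 14479 ± 566 TPM on gel (log2FC = 1.10 ± 0.11 SE, adjusted P = 3.78e-05). Other large gains were of TMSB10, a small actin-binding peptide (0.37), S100A6, a calcium-binding protein (0.80), FTL, the light chain of ferritin (0.72), and CTSD, the lysosomal protease cathepsin D (1.08, all log2FC). Pseudogenes of ferritin and actin share sequence with these genes, so their levels depend on how the authors split such reads.

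Targets of YAP and TEAD were mostly lower on gel. Of 33 members tested 24 were lower and 2 higher, with a median log2FC of -0.81 against -0.04 over all genes. Over all genes tested 28.5% were lower and 23.4% higher, the background of every group count that follows. CCN2, or connective tissue growth factor, the target most often used as a readout of YAP, measured 456, 476 and 471 TPM on plastic and 147, 156 and 151 TPM on gel (log2FC = -1.62 ± 0.06 SE, adjusted P = 1.40e-07). Its 3 gel libraries stood close together, and the lowest plastic library was 2.93-fold the highest of them. THBS1, thrombospondin, fell from 1296, 1409 and 1381 TPM to 576, 377 and 421 TPM (log2FC = -1.59 ± 0.13 SE, adjusted P = 1.04e-05), with gel replicate 1 the highest on gel. CRIM1, a BMP-binding membrane protein, fell by 1.67, and TGFB2 by 1.56. Smaller decreases were measured for CCN1 (-0.49), AXL, a receptor kinase (-0.88), and AMOTL2, a junctional binder of YAP (-0.73). The ectonucleotidase NT5E was higher by 0.41 and the muscle ankyrin repeat gene ANKRD1 by 0.21 (adjusted P = 0.0329 by limma), and the call of ANKRD1 was lost in 11 of 17 alternative settings. After removal of the length trend 25 members were lower and 1 higher, at a median of -0.49, and without gel replicate 1 the counts were 25 and 2.

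Genes of the Hippo pathway itself were mostly lower as well, both kinases and their outputs. Of 19 tested 17 were lower and none higher, at a median of -0.62. TEAD1 and LATS2 are counted both here and among the YAP/TEAD targets. YAP1 measured 115, 126 and 119 TPM on plastic and 77.3, 55.9 and 64.8 TPM on gel (log2FC = -0.86 ± 0.10 SE, adjusted P = 1.08e-04). The groups did not overlap. TAZ, encoded by WWTR1, fell by 0.62 and TEAD1 by 1.43. Decreases were also measured for the kinases LATS1 (-0.99) and LATS2 (-0.98) and for NF2, or merlin, which recruits LATS to the membrane (-1.17). STK3, a kinase upstream of LATS, was not called, at 9.85 to 10.8 TPM on plastic and 9.93 to 10.1 TPM on gel, nor was TEAD4, at 16.4 to 19.1 and 15.2 to 16.7 TPM. With the length trend removed 15 were lower and none higher, at a median of -0.39.

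THBS1 was the YAP/TEAD target of the highest level among the called genes whose promoter held a TEAD motif. The motif searched was CATTCC on either strand, and the promoter window ran from 250 bases before to 50 bases after the start (RefSeq, GRCh38.p14). Its promoter, chr15:39580829-39581128 on the plus strand, is shown 5' to 3' with the motif in capitals, here as its reverse complement 46 bases before the start.
THBS1: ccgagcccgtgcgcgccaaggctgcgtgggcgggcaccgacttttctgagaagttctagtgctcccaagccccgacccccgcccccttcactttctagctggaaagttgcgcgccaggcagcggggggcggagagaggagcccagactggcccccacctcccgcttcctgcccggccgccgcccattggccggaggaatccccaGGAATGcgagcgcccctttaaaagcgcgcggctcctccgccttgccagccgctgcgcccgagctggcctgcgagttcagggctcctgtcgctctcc
The motif was present in 6 of 19 promoters of YAP/TEAD targets called lower, in 14.0% of all 27305 promoters and in 10.7% of the 10188 promoters of genes tested. It was also present in 5 of 20 promoters of SRF and actin targets called lower, in 3 of 10 of cholesterol genes called higher and in 7 of 36 of interferon-stimulated genes called higher. Over all genes called lower by 1 or more its share was 13.9%, and over those called higher by 1 or more 10.4%. A match in this window is a description of sequence and not of binding.

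Contractile and actin genes were mostly lower on gel. Of 31 SRF and actin targets tested 24 were lower and 1 higher, at a median of -0.49. TAGLN, an actin-binding protein of smooth muscle, measured 1249, 1241 and 1277 TPM on plastic and 390.4, 394 and 381 TPM on gel (log2FC = -1.69 ± 0.06 SE, adjusted P = 1.25e-07). The lowest plastic library was 3.15-fold the highest gel library. The myosin light chain MYL9 (log2FC -1.03), caldesmon CALD1 (-1.21) and the calponin CNN1 (-1.36) fell as well. CNN1 measured 3.87, 3.12 and 3.66 TPM on plastic and 0.92, 0.52 and 0.90 TPM on gel. It is 1 of 2 members of the list that passed the level filter through plastic alone, which partly fixed their direction. SRF itself fell by 0.35. ACTG1, cytoplasmic gamma-actin, measured 5577, 5113 and 5610.1 TPM on plastic and 4865, 4849.6 and 4682 TPM on gel (log2FC = -0.18 ± 0.06 SE, adjusted P = 0.0236), but its log2FC was 0.0045 and not called under quantile normalization. ACTA2, smooth muscle alpha-actin, measured 68.9, 61.5 and 66.1 TPM and 42.5, 40.6 and 39.9 TPM (log2FC = -0.66 ± 0.07 SE, adjusted P = 5.40e-05). The tropomyosin TPM2 was higher by 0.18 (adjusted P = 0.0344 by limma), a difference that turned to -0.03 and lost its call with the length trend removed. After removal of the length trend 24 were lower and 5 higher, the latter with the long transcripts of FLNA, FLNC and TLN1.

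ACTG1 was the SRF target of the highest level among the called genes whose promoter held a CArG box, the SRF motif. Its promoter, chr17:81512750-81513049 on the minus strand, is shown 5' to 3' with the CArG box in capitals, 94 bases before the start.
ACTG1: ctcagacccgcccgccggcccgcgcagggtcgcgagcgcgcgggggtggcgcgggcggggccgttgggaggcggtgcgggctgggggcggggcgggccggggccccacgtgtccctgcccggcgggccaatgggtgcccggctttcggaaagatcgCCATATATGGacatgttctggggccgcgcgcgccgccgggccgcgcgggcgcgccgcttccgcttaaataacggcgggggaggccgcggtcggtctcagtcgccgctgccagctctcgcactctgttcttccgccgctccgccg
A CArG box was present in 5 of 20 promoters of SRF and actin targets called lower, in 1.29% of all promoters and in 1.07% of those of genes tested.

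Adhesion genes were mostly lower, with exceptions among integrins. Of 24 focal adhesion genes 18 were lower and 1 higher, at a median of -0.47, and 1 of the 24 passed the level filter through plastic alone. VCL, or vinculin, which bears load between integrins and actin, measured 231, 252 and 247 TPM on plastic and 184, 128 and 139 TPM on gel (log2FC = -0.71 ± 0.11 SE, adjusted P = 6.65e-04). Gel replicate 1 lay between the other gel libraries and plastic. VCL, TLN1 and ZYX are also counted among the SRF and actin targets. Of 13 integrin subunits 9 were lower and 2 higher. ITGB1, the shared beta subunit, fell by 0.38, ITGAV by 0.96, ITGA4 by 1.17 and ITGB8 by 1.52. The collagen-binding ITGA2 rose from 3.10, 3.19 and 3.05 TPM to 6.47, 4.69 and 4.81 TPM (log2FC = 0.61 ± 0.14 SE, adjusted P = 0.00388), and ITGA5, the fibronectin receptor subunit, rose by 0.32, a call lost without mitochondrially encoded genes and without plastic replicate 2. Caveolar genes had 4 of 6 tested lower, among them CAV1 (-0.71) and CAVIN2 (-1.64). Nuclear envelope genes had 9 of 12 lower, among them the LINC complex genes SUN1 (-0.89) and SYNE2 (-1.07), while LMNA, the lamin A and C gene, was higher by 0.38. With the length trend removed the lower counts were 13 of 24 focal adhesion genes (3 higher), 9 of 13 integrins, 4 of 6 caveolar genes and 6 of 12 nuclear envelope genes.

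**Figure D3:**
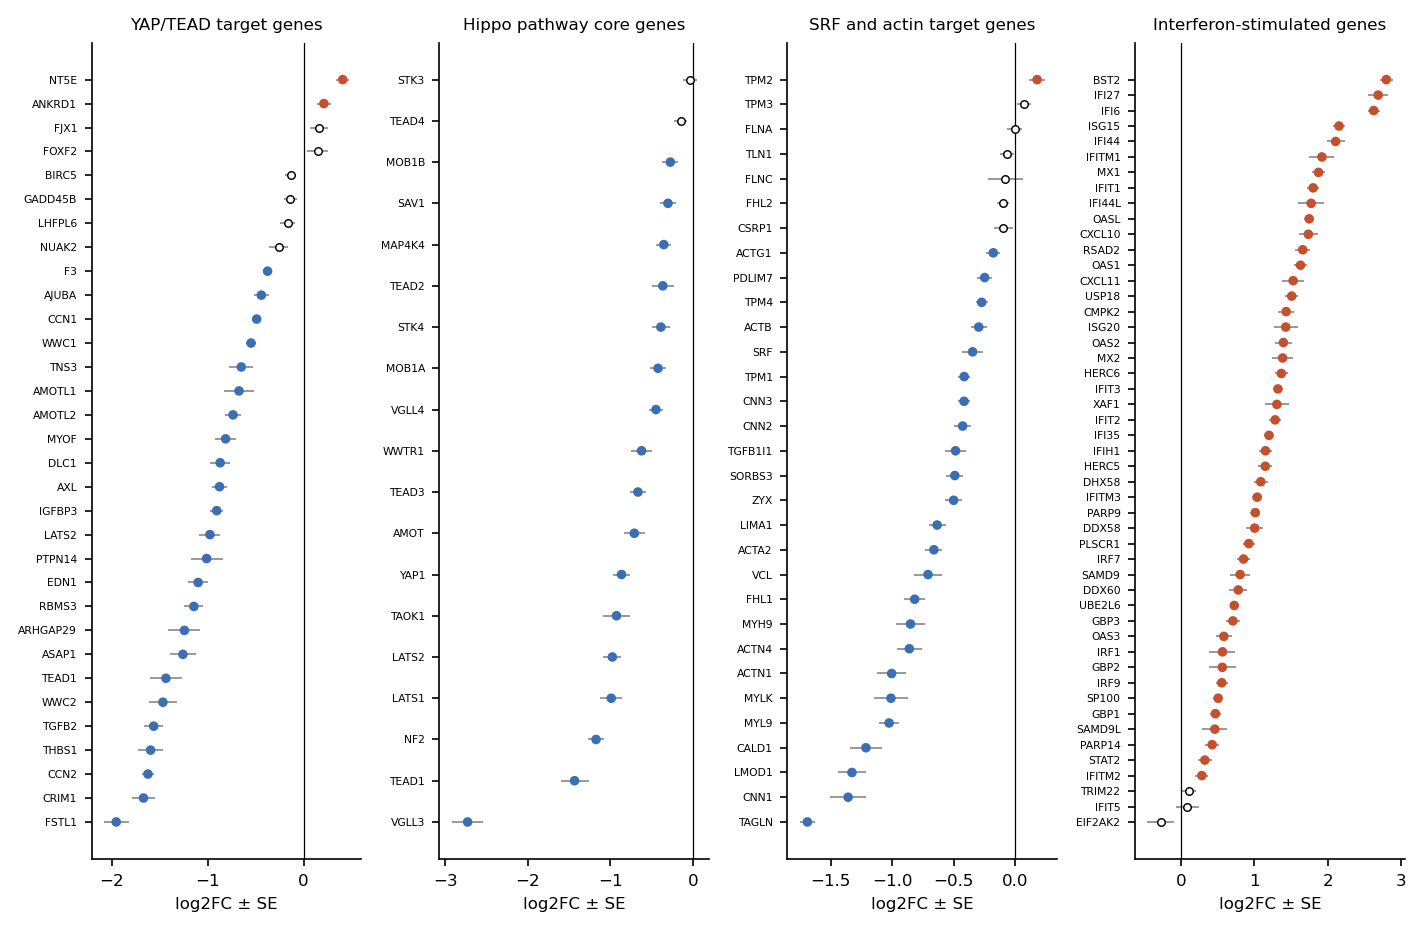
Log2FC (horizontal axis, log2(TPM + 1) scale) with its standard error for tested members of 4 gene groups, each member shown 1 point ordered by value; filled points were called. Targets of YAP/TEAD, SRF targets and Hippo genes lie mostly left of 0, and the interferon-stimulated genes lie mostly right of it.

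More of the matrix genes were lower than higher. Of 21 genes of fibrillar collagens and crosslinking 13 were lower and 2 higher. COL1A1 measured 58.8, 57.5 and 67.0 TPM on plastic and 28.8, 19.4 and 19.4 TPM on gel (log2FC = -1.42 ± 0.19 SE, adjusted P = 2.10e-04). COL11A1 fell by 1.52. LOX, which crosslinks collagen and elastin, measured 587, 691 and 632 TPM and 339, 286 and 314 TPM (log2FC = -1.02 ± 0.08 SE, adjusted P = 8.49e-06), and LOXL2 fell by 1.30. Of 20 basement membrane genes 11 were lower and 4 higher. The paired type IV collagen genes COL4A1 and COL4A2 fell by 1.31 and 1.24, and NID1, which joins laminin to collagen, fell by 1.55. The laminin chain LAMB3 moved the other way, from 13.1, 11.6 and 13.3 TPM to 46.1, 34.4 and 36.8 TPM (log2FC = 1.54 ± 0.15 SE, adjusted P = 4.05e-05). With the length trend removed 9 basement membrane genes were lower and 7 higher and the median turned from -0.31 to 0.13, whereas in the fibrillar group 13 were lower and 2 higher.

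Proteases and their inhibitors split by gene. Of 16 MMP, ADAMTS and TIMP genes 9 were lower and 4 higher. Beside MMP1, the proteoglycan-cleaving protease ADAMTS9 rose from 8.25, 8.54 and 8.74 TPM to 25.2, 28.4 and 26.9 TPM (log2FC = 1.55 ± 0.09 SE, adjusted P = 1.31e-06). TIMP1, an inhibitor of MMPs, rose from 216, 202 and 212 TPM to 369, 430.4 and 398 TPM (log2FC = 0.92 ± 0.07 SE, adjusted P = 8.62e-06). TIMP2 and TIMP3, the latter an inhibitor bound in Bruch's membrane, fell by 0.99 and 0.85. ADAMTS5 fell by 1.87 and MMP24 by 1.35. After removal of the length trend 7 of the 16 were lower and 6 higher, and the median moved from -0.43 to -0.14.

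Ligands and targets of the TGF-beta family differed in direction. Of 21 TGF-beta genes 11 were lower and 3 higher, but 9 and 7 with the length trend removed, where the median moved from -0.41 to -0.06. TGFB2 measured 273, 326 and 277 TPM on plastic and 112, 89.8 and 93.7 TPM on gel (log2FC = -1.56 ± 0.10 SE, adjusted P = 3.14e-06), the largest decrease of the group. TGFB1 was not called, at 63.6 to 72.7 TPM on plastic and 65.7 to 70.8 TPM on gel. The signal carrier SMAD3 fell by 1.04, while SMAD7, which blocks the receptor, rose by 0.83 and the receptor TGFBR2 by 0.58. Of 15 BMP genes 6 were lower and 6 higher. The inhibitors of differentiation ID1, ID2, ID3 and ID4, direct targets of BMP signals, all rose. ID1 measured 38.0, 33.0 and 43.7 TPM on plastic and 141, 161 and 161 TPM on gel (log2FC = 1.99 ± 0.11 SE, adjusted P = 1.33e-06), and ID4 4.16, 4.61 and 4.86 TPM and 21.2, 21.9 and 23.2 TPM (log2FC = 2.06 ± 0.10 SE, adjusted P = 3.79e-07). BMP2 rose by 1.08, while BMP4 fell by 0.66 and the receptor BMPR2 by 1.14. Among IGF binding proteins IGFBP3 fell by 0.90, and IGFBP6 and IGFBP7 rose by 1.28 and 0.62. VEGFC, a lymphatic growth factor, rose by 1.29 and the receptor EGFR fell by 1.17.

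Interferon-stimulated genes were higher on gel almost throughout. These genes carry out antiviral defence and are switched on by interferons through factors that include STAT2 and IRF9. Of 51 listed 50 were tested, and 47 were higher and none lower, at a median log2FC of 1.15, where 23.4% of all genes were higher. Of these 30 reached a log2FC of 1, and 2 of the 50 passed the level filter through the gel libraries alone. The 3 not called were EIF2AK2 (24.7 to 31.0 TPM on plastic and 20.4 to 30.2 TPM on gel), IFIT5 (19.5 to 22.2 and 18.8 to 28.4 TPM) and TRIM22 (108 to 123 and 109 to 139.9 TPM). The summed level of the list was 2945 to 3150 TPM on plastic and 7473 to 7660 TPM on gel. IFI6, an antiviral membrane protein, measured 192, 189 and 206 TPM on plastic and 1129, 1281 and 1231 TPM on gel (log2FC = 2.63 ± 0.08 SE, adjusted P = 3.09e-08). ISG15, a ubiquitin-like modifier, measured 144, 136 and 150.5 TPM and 582, 694 and 651 TPM (log2FC = 2.15 ± 0.08 SE, adjusted P = 1.25e-07). IFI27 measured 28.8, 26.2 and 21.1 TPM and 151, 174 and 178 TPM (log2FC = 2.69 ± 0.13 SE, adjusted P = 5.62e-07). In IFI6, ISG15, IFI27 and BST2 the lowest gel library was 5.49-, 3.87-, 5.24- and 6.38-fold the highest plastic library. MX1, a GTPase against influenza virus, rose by 1.87. IFITM3, which blocks viral fusion, measured 1029, 905 and 940.4 TPM and 2022, 1934 and 1951 TPM (log2FC = 1.04 ± 0.07 SE, adjusted P = 2.96e-06). Its neighbours IFITM1 and IFITM2 rose by 1.92 and 0.29, and these related genes may share reads. IRF9 rose by 0.56, and STAT2 rose by 0.33, a call lost without mitochondrially encoded genes. With the length trend removed 46 were higher, and without gel replicate 1 44 were higher and 1, EIF2AK2, lower.

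The interferon genes IFNB1 and IFNG were looked up after the list had been seen, and were low or listed at 0. Values of other interferon genes are not given here. IFNB1, interferon beta, measured 1.00, 1.49 and 0.94 TPM on plastic and 2.36, 4.74 and 3.29 TPM on gel (log2FC = 1.03 ± 0.20 SE, adjusted P = 0.00169). Every gel library was above every plastic library, at levels under 5 TPM. IFNG was listed at 0 in all 6 libraries.

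Of the called interferon-stimulated genes IFITM3 had the highest level among those whose promoter held the interferon-stimulated response motif, a pair of GAAA runs with any 2 bases between them, on either strand. The promoters of BST2 and IFI27, chosen after their values were seen because both genes are among the leading members, are shown beside it. They lie at chr11:320811-321110 (minus strand), chr19:17405581-17405880 (minus strand) and chr14:94110486-94110785 (plus strand), 5' to 3', with matches in capitals. In BST2 the capitals join overlapping matches, and in IFI27 the first match is on the opposite strand.
IFITM3: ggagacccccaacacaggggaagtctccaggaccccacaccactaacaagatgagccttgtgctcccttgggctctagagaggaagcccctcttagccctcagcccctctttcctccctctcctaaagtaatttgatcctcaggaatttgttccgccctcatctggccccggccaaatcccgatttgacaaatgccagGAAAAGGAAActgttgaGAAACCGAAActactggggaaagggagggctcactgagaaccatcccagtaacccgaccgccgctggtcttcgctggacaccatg
BST2: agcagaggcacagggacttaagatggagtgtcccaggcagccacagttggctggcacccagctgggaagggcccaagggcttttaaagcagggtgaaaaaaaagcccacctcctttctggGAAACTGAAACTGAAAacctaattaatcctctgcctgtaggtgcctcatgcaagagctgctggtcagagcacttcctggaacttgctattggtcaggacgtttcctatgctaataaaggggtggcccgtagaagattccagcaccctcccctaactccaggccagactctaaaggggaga
IFI27: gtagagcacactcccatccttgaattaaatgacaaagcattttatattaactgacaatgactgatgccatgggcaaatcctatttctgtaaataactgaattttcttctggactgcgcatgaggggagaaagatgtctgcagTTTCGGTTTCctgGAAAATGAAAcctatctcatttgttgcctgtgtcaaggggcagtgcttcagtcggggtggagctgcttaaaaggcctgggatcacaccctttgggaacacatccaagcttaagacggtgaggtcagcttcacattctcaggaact
The motif was present in 22 of 36 promoters of the interferon-stimulated genes called higher, in 3.65% of all promoters and in 2.74% of those of genes tested. Over all genes called higher by 1 or more it was present in 21 of 115 promoters (18.3%), and over those called lower by 1 or more in 13 of 330 (3.94%). The former 115 include members of the list.

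Genes of antigen presentation, chemokines and secreted inflammatory factors were mostly higher too. Of 18 antigen presentation genes 12 were higher and 1 lower. B2M, the light chain of MHC class I, measured 438, 476 and 451 TPM on plastic and 839, 903 and 992 TPM on gel (log2FC = 1.00 ± 0.07 SE, adjusted P = 3.24e-06), and HLA-B rose by 1.03. Of 18 chemokines and cytokines 12 were higher and 3 lower, with 2 of the 18 past the level filter through gel alone. CXCL8, which attracts neutrophils, measured 63.2, 68.3 and 66.9 TPM on plastic and 295, 387 and 382 TPM on gel (log2FC = 2.40 ± 0.10 SE, adjusted P = 2.47e-07). The T cell chemokine CXCL10 rose from 0.65, 0.60 and 0.39 TPM to 4.52, 4.05 and 3.87 TPM and CCL5 by 1.51. In contrast CCL2, which attracts monocytes, fell by 0.67 and IL18 by 0.65. Of 18 senescence-associated secreted factors 13 were higher and 3 lower, a list that holds ANGPTL4, MMP1 and CXCL8 as well and in which 2 also passed through gel alone. Of 19 NF-kB subunits and targets 13 were higher and 1 lower, against 13 and 4 without gel replicate 1 and 10 and 3 without mitochondrially encoded genes. Of these 19, 1 passed the level filter through plastic alone. BIRC3, an inhibitor of apoptosis, rose by 1.23 and TNFAIP2 by 1.15, and the subunit REL fell by 1.29. Of 12 complement genes 7 were higher and 2 lower, or 7 and 1 with the length trend removed. C3 rose from 48.8, 64.2 and 55.4 TPM to 100.5, 117 and 104 TPM (log2FC = 0.92 ± 0.10 SE, adjusted P = 6.34e-05) and C1S, a protease of the classical pathway, by 1.08.

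Genes of peroxide defence and heat shock were mostly higher on gel, lysosomal genes less uniformly so and metallothioneins in both directions. Of 25 NRF2 targets and peroxide defence genes 18 were higher and 1 lower. HMOX1, heme oxygenase, measured 31.0, 26.6 and 29.3 TPM on plastic and 115, 131 and 127 TPM on gel (log2FC = 2.07 ± 0.09 SE, adjusted P = 1.83e-07). NQO1, a quinone reductase, measured 404, 391 and 447 TPM and 969, 1016 and 995 TPM (log2FC = 1.26 ± 0.06 SE, adjusted P = 4.00e-07). Of 17 heat shock genes 13 were higher and 2 lower. The chaperone HSPA8 rose from 845, 792 and 811 TPM to 1669, 1618 and 1584 TPM (log2FC = 0.99 ± 0.05 SE, adjusted P = 6.40e-07) and HSPB8 by 1.22. Of 27 lysosome and cathepsin genes 15 were higher, among them CTSS (1.35) and CTSL (0.82), and 4 lower, or 12 and 7 without mitochondrially encoded genes. Among metallothioneins 3 of 7 tested were higher and 3 lower, while the summed level of the list was 5604 to 6290 TPM on plastic and 6676 to 7690 TPM on gel. MT1X rose by 0.87 and MT1F fell by 0.74, and these near-identical genes may share reads.

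Nuclear genes of oxidative phosphorylation and mitochondrially encoded genes differed in direction. Of 37 nuclear genes 32 were higher and 1 lower, at a median of 0.34, with COX7A2 higher by 0.73 and ATP5MC1 by 0.65. Of 13 mitochondrially encoded genes 8 were lower and none higher, at a median of -0.52. MT-CYB, cytochrome b, measured 8844, 7905 and 7892 TPM on plastic and 5591, 4873 and 4750.1 TPM on gel (log2FC = -0.70 ± 0.07 SE, adjusted P = 6.63e-05). Under quantile normalization 6 of the 13 were lower and 1 higher, at a median of -0.11. The nuclear genes are short, and 24 were higher and none lower with the length trend removed. Ribosomal protein genes, also short, had 14 of 23 higher and none lower, but 4 higher and 4 lower under quantile normalization and 7 and 2 with the length trend removed.

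More genes of glycolysis and the amino acid response were lower than higher, and more cholesterol genes were higher than lower. Of 25 genes of glycolysis and lactate 15 were lower and 4 higher. SLC2A1, the main glucose transporter, measured 469.7, 476 and 458 TPM on plastic and 329, 265 and 292 TPM on gel (log2FC = -0.67 ± 0.08 SE, adjusted P = 1.27e-04). The kinase PDK1, which limits entry of pyruvate into mitochondria, fell by 1.10. CA9, a carbonic anhydrase induced by hypoxia, fell from 57.3, 59.2 and 55.4 TPM to 17.6, 17.2 and 16.2 TPM (log2FC = -1.70 ± 0.07 SE, adjusted P = 2.11e-07), and 9 of 20 hypoxia genes were lower (45.0%, against 28.5% of all genes) and 3 higher. The hypoxia counts were 8 and 5 with the length trend removed. Of 23 genes of the ATF4 and amino acid response 15 were lower and 2 higher. The serine synthesis genes PHGDH and PSAT1 fell by 0.94 and 0.96, and SLC7A5, a transporter of large amino acids, from 216, 223 and 226 TPM to 106, 79.5 and 89.0 TPM (log2FC = -1.28 ± 0.09 SE, adjusted P = 5.44e-06). Of 18 tRNA synthetases 11 were lower and 4 higher. Of 24 cholesterol synthesis and uptake genes 13 were higher and 4 lower, at most by MSMO1 at 0.85 and SQLE at 0.66. Fatty acid genes split, with 7 of 15 lower and 4 higher, or 6 and 6 with the length trend removed.

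Cell cycle genes were lower on gel more often than higher, mostly by less than 1 on the log2 scale. Of 41 tested 22 were lower and 2 higher, at a median of -0.26. MKI67, a marker of proliferation, measured 82.9, 89.8 and 93.4 TPM on plastic and 47.1, 40.8 and 38.6 TPM on gel (log2FC = -1.06 ± 0.10 SE, adjusted P = 2.67e-05). The mitotic kinesin KIF20A fell by 0.79 and the transcription factor MYBL2 fell by 0.79, whereas the mitotic cyclin CCNB1 was not called, at 229 to 239.7 TPM on plastic and 235 to 244 TPM on gel. The CDK inhibitor CDKN1A, or p21, rose from 222, 225 and 211 TPM to 322, 292 and 297 TPM (log2FC = 0.47 ± 0.05 SE, adjusted P = 1.11e-04), and CDK6 fell by 1.40. Of the 41 genes 24 were lower and 1 higher with the length trend removed.

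RPE genes were called in both directions, and epithelial junction genes were mostly lower. Of 8 visual cycle genes tested 2 were higher and 1 lower, or 3 and 2 with the length trend removed and 2 and 2 without gel replicate 1. The retinoid reductase DHRS3 rose from 10.4, 11.3 and 11.2 TPM to 23.4, 24.0 and 21.4 TPM (log2FC = 1.00 ± 0.11 SE, adjusted P = 6.18e-05), and RDH5 fell by 0.48. STRA6, a receptor for retinol binding protein, was higher by 0.80, at 0.24 to 0.36 TPM on plastic and 1.00 to 1.54 TPM on gel, and passed the level filter through the gel libraries alone, which partly fixed its direction. MITF, the master regulator of pigment cells, measured 12.6, 12.6 and 13.9 TPM on plastic and 3.94, 3.20 and 3.96 TPM on gel (log2FC = -1.58 ± 0.10 SE, adjusted P = 2.96e-06). The melanosome gene PMEL fell by 1.07 and PAX6, an eye transcription factor, by 1.02. OTX2 fell by 0.49. The chloride channel BEST1 was higher by 0.50, at 1.11 to 2.40 TPM, and overlaps FTH1 on the opposite strand. Of 18 epithelial junction and keratin genes 11 were lower and 1 higher, among them the desmosomal genes DSP (-1.01) and JUP (-1.12). Among 13 mesenchymal identity genes 5 were lower and 3 higher (23.1%, near the 23.4% of all genes), or 2 and 2 with the length trend removed, and the growth factor receptor PDGFRB fell by 1.45.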

How the data were processed

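RNA of ARPE-19 cells was sequenced by the authors after poly-A selection, and the deposited values are TPM per gene with 2 decimals. The submitters' processing notes name STAR 2.7.3a and 2.7.10b, RSEM and GRCh38, without saying which tool made which table. Whether counting used strand and how reads shared by near-identical genes were divided are not given in the sources used here. TPM is relative within a library, so a change in abundant genes moves all others, and depth is unknown because no counts were used.

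Groups came from the labels. The gel and plastic libraries (3 each) were compared on log2(TPM + 1) with limma 3.58.1 in R 4.3.3, with an intensity trend and without robust weights, over the 14253 genes with at least 1 TPM in at least 3 of the 6 libraries. All 9 ARPE-19 libraries, including 3 with YAP-HA on gel, entered 1 fit with a term per group. Among the alternatives, quantile normalization, median-ratio scaling and the length trend were computed over the same 9 libraries. A log2FC is gel minus plastic on the log2(TPM + 1) scale, which understates changes of low genes, and is given with its standard error (SE). P values were two-sided and adjusted by the Benjamini-Hochberg method over all genes tested, and genes with an adjusted P under 0.05 were called. The script was tested on simulated data. Lengths were the longest transcript of each gene in GENCODE release 29, and promoters were from RefSeq (GRCh38.p14).

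Genes were named by rule: the 12 largest increases and decreases among called genes with an official symbol and no overlap between groups, the 10 largest differences in mean TPM in each direction, and in each of 60 gene lists the 4 called members of largest log2FC and the 2 of highest level, plus members that give a class its name. A subset of these is given, and some items are not reported here. The members and lists were chosen with earlier results of these data known. Several lists share members, so their counts are not independent. Alternatives changed the libraries fitted, pseudocount, filter, normalization, variance model, replicate block and length trend, or left out mitochondrially encoded genes or 1 library.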

Additional observations from a re-analysis of the deposited data

How the results depend on the processing

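Across 17 alternatives the counts of genes called higher (2476 to 3897) and lower stayed within 1.5 times the reported ones, as did those higher by 1 or more. The genes lower by 1 or more numbered 525, but 879 with a pseudocount of 0.1 and 290 with the length trend removed, an alternative chosen after seeing the data; the cause was not tested. Leaving out 1 library gave 2696 to 3304 higher and 3167 to 4604 lower genes, 217 to 249 higher and 386 to 773 lower by 1 or more, the most lower genes without gel replicate 1. Without mitochondrially encoded genes 2476 were higher and 4944 lower.

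Plastic and gel libraries share replicate numbers, but the deviations from the group means of same-numbered libraries correlated at -0.10, -0.11 and -0.12 and those of other pairs at 0.04 to 0.07, so that no library correlated best with its own number. With the replicate number as a block 2612 genes were higher and 3151 lower, 234 and 529 by 1 or more.

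Over the 167 named genes, 2784 of 2819 values kept direction and call. ACTG1 reversed under quantile normalization (0.0045) and TPM2 with the length trend removed (-0.031). The 33 lost calls were those of ACTG1, ANKRD1, TPM2, ITGA5, STAT2 and PTCH1. Of 120 counts of group members called, between 1 and 23 in a setting moved by over 1.5 times without a turn of balance. Balances turned without mitochondrially encoded genes for p53 targets (4 higher, 5 lower), BCL-2 genes (3 and 4) and cholesterol efflux genes (3 and 4), and with the length trend removed for p53 targets (5 and 6) and iron genes (4 and 3). Depth is unknown, and the 3 libraries per group limit the precision.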

Other observations

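In several gene groups outside the main themes more members were lower on gel than higher, though often not most of them, read against 28.5% of all genes lower and 23.4% higher. Of 16 clock genes 7 were lower and none higher (6 and 1 with the length trend removed), among them CLOCK (log2FC -0.85), the repressor CRY1 (-0.73) and BHLHE41 (-1.11). Of 20 Wnt pathway genes 10 were lower, among them the co-receptor LRP6 (log2FC -1.12), and 2 were higher, of which the receptor FZD8 rose by 0.69. The Wnt counts were 6 lower and 4 higher with the length trend removed, near the background. Of 22 primary cilium genes 9 were lower and 1, BBS5, higher, and with the length trend removed 5 were lower and 2 higher. The hedgehog receptor PTCH1 fell by 0.82 and its partner SMO by 0.64, and the call of PTCH1 was lost with the length trend removed. Of 19 growth factors and receptors 11 were lower and 3 higher, with the insulin-like growth factor receptor IGF1R, from the IGF list, at -1.39 and PDGFA at 0.56. Of 15 RPE transcription and secreted factors 10 were lower and 2 higher, among them LHX2 (-0.60), SOX9 (-0.61) and SERPINF1 (-0.61), which encodes the secreted factor PEDF, while CST3, or cystatin C, rose by 0.87. Of 11 tubulins 5 were lower and 1, TUBB3, higher by 0.96. Of 8 IGF genes 5 were lower and 2 higher, of 14 other matrix glycoproteins 7 and 3, of 12 G1 cyclins and CDK inhibitors 5 and 2, of 7 mechanosensitive channels 3 and 1 (3 and 3 with the length trend removed, 5 and 1 without gel replicate 1), and of 7 melanin genes 3 and 1.

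Other groups divided or were mostly higher. Of 22 ER chaperones and unfolded protein response genes 11 were higher and 6 lower. The counts were 7 and 6 under quantile normalization, and also 7 and 6 without mitochondrially encoded genes. The small ER proteins SDF2L1 and CRELD2 rose by 1.02 and 0.94 and the chaperone HSPA5, or BiP, by 0.43, while the lectin chaperone CANX fell by 0.74. Of 11 serpins 5 were higher and 2 lower, and of 19 immediate early genes 7 were higher and 5 lower. Iron genes had 3 of 13 higher, both ferritin chains and the ferroxidase CP (1.08), and 7 lower, among them IREB2 (-0.77), a regulator of ferritin translation. That balance turned to 4 higher and 3 lower with the length trend removed. Of 15 BCL-2 family genes 7 were higher and 4 lower, with PMAIP1, or NOXA, rising by 0.98, and of 22 p53 targets 6 were higher and 5 lower, balances that turned without mitochondrially encoded genes. Of 9 cholesterol efflux genes 3 were higher and 2 lower (3 and 1 with the length trend removed), and 1 of the 9 passed the level filter through plastic alone. Of 7 Notch genes 2 were higher and 1 lower, and of 11 RPE channels and transporters 2 and 2 (4 and 1 with the length trend removed). Of a further list of 9 senescence genes, which shares members with others, 4 were higher and 2 lower.

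Replication-dependent histone genes, whose transcripts mostly lack a poly-A tail, were nearly all higher on gel. Of 8 tested 7 were higher and none lower, at a median log2FC of 0.74, with H2AC6 at 1.50 and H1-2 at 1.46. RN7SK, a small nuclear RNA chosen after the values of RN7SL1 were seen, measured 4.88, 9.47 and 7.52 TPM on plastic and 36.3, 29.5 and 57.9 TPM on gel (log2FC = 2.33 ± 0.46 SE, adjusted P = 0.00198). By class, 4 of 13 genes of the miscellaneous class, that of RN7SL1, were higher and 2 lower. Of 12 small nuclear RNA genes, the class of RN7SK, 2 were higher and none lower. Of 8 small nucleolar RNA genes 2 were higher and 1 lower. In smaller classes 3 of 3 ribosomal RNA genes, 2 of 2 ribozyme genes and the 1 small cytoplasmic RNA gene tested were higher. The 1 microRNA gene and the 1 small Cajal body RNA gene tested were not called. The libraries were selected on poly-A, and whether the amount of such RNA carried over differed between the groups was not tested.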
